A study of Mus musculus with 10 samples.

Results

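To follow the lipid supply of glial cells through gliomagenesis, 37 genes of sterol and lipid synthesis under the control of the SREBP transcription factors were drawn by name from the 23230 features of the expression matrix. All 37 were found. They comprised 5 regulators, 6 enzymes of the isoprenoid (mevalonate) steps, 9 enzymes of the sterol steps from squalene onward, 1 sterol carrier, 6 genes of fatty acid synthesis and monounsaturation, 3 genes of polyunsaturated fatty acid synthesis, 5 genes of glycerolipid assembly and 2 sterol efflux transporters. Expression was measured by RNA-seq in 10 libraries of cultured mouse cells in 3 groups. AstroEGFR* (3 libraries, one for each of 3 astrocyte batches) were cortical astrocytes of C57BL/6 pups at P5, deficient for p16/p19 (Ink4a/Arf-/-) and carrying human EGFRvIII, a constitutively active EGF receptor, from a retroviral vector. PT (4 libraries) were glioma propagating cells grown from tumours that arose when such astrocytes were transplanted into CD1 Nude mice, which lack T cells. The GEO labels do not tie PT to a batch. From a figure of the study each PT was assigned to its astrocytes of origin, read as those of batch 1 for both PT1 and PT4, those of batch 2 for PT2 and those of batch 3 for PT3. PT1 and PT4 would then share their source. AstroEGFR* Zfp423 (3 libraries, one per astrocyte batch) additionally carried a viral vector for the zinc finger transcription factor Zfp423, and the deletion and EGFRvIII were thus common to all 10 libraries. AstroEGFR* cells were kept in serum whereas PT cells were kept in serum-free medium with EGF and FGF2, and the passage through a tumour cannot be told apart from this change of medium.

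The SREBP factors are made as membrane precursors. Scap escorts them to the Golgi for cleavage when sterols are scarce, Insig proteins retain Scap in the endoplasmic reticulum when sterols are plentiful, and the released factors then drive transcription, SREBP2 mainly of cholesterol genes and SREBP1 mainly of fatty acid genes. The sterol-sensing LXR receptors act on the other side, inducing the efflux transporters Abca1 and Abcg1 and also Srebf1. Cholesterol barely crosses the blood-brain barrier, so neural cells depend on synthesis within the brain, to which astrocytes contribute much.

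Proximal promoters were inspected because SREBP acts close to the start site together with CCAAT-binding NF-Y. Windows of the 250 bases before the start were available from RefSeq (GRCm38.p6) for 27 of the 37 genes, some with several starts, which gave 36 windows among 32851 of all genes. The CCAAT box (CCAAT, either strand) was present in 19 of the 36 windows, 52.8%, against 33.8% of all windows. The E-box CACGTG, which SREBP factors can also bind and which reads the same on both strands, was present in 7 of 36, 19.4%, against 6.02%. One spelling of the sterol regulatory element, TCACNCCAC on either strand, was found in none of the 36 windows and in 1.05% of all, which says only that these letters were not in these windows. Insig1 held both an E-box and a CCAAT box. Given 5′ to 3′ in the direction of transcription are 3 windows, chosen as those of the sterol-side factor itself, of its retention protein and of the fatty acid elongase with the lowest p among the 36 genes tested in PT against AstroEGFR*. Capitals mark the E-box and the CCAAT box, here as its reverse complement ATTGG.
Srebf2 (chr15:82147019-82147268, plus strand): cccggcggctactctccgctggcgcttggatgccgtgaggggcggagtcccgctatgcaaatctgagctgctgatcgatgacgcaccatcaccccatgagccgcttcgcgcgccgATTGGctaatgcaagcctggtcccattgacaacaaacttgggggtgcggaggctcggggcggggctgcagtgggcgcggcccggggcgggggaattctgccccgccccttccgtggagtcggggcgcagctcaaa
Insig1 (chr5:28071162-28071411, plus strand): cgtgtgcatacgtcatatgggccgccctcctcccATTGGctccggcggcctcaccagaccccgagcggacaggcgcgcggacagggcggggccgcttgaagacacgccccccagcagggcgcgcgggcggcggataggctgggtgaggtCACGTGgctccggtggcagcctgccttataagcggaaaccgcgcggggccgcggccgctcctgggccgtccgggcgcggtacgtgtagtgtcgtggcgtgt
Elovl6 (chr3:129532136-129532385, plus strand): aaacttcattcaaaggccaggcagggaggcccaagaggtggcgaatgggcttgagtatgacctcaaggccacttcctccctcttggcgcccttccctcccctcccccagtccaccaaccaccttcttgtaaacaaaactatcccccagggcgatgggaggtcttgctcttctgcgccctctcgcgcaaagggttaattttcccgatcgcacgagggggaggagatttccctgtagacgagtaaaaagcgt
In Srebf2 the match lay at position -135 from the start, in Insig1 the E-box lay at -101 and the CCAAT box at -216, and the Elovl6 window held none of the 3 motifs. A match is a description of the letters and not evidence of binding.

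Values are FPKM, a level scaled for transcript length and for the fragments mapped in each library, and group differences are on the log2(FPKM + 1) scale, which understates differences of low genes. Read counts per library cannot be recovered from FPKM and depth is therefore unknown. The libraries were uneven. Small RNA features took between 0.209% and 54.5% of the FPKM sum. Their share was 34.7%, 34.9% and 54.5% in the Zfp423 libraries of batches 1 to 3, above the 0.209%, 27.5% and 4.81% of AstroEGFR* replicates 1 to 3. In the second comparison this share and the vector cannot be told apart. AstroEGFR* replicate 3 and PT3 listed 8417 and 9155 features at 0 against 6200 to 7436 in the other libraries. The ubiquitously used Gapdh lay between 0.0106 and 2.52 FPKM except in PT3, where it was 50.1. Hmgcs1, the HMG-CoA synthase of the mevalonate pathway and also ubiquitously used, was listed at 0 in all 10 libraries. Hmgcs1 was for that reason not among the 37. All 8 astrocyte markers were above 0 in all 10 libraries. Their summed FPKM was 509 to 1048 in AstroEGFR*, 352 to 921 in PT and from 59.4 in replicate 2 to 904 in AstroEGFR* Zfp423. In that replicate 2, Gja1 gave 52.2 of the sum and each other astrocyte marker was at most 2.25 FPKM, with Aqp4 at 0.027. Fewer cells of a type and less RNA per cell cannot be told apart in such cultures.

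The first comparison asked how expression of the sterol and lipid genes differed between tumorigenic astrocytes and the cells cultured from the tumours they gave rise to. The fatty acid genes Elovl6 and Fads1, the glycerolipid genes Lpin1 and Dgat2 and the SREBP brake Insig1 stood out, each with every PT library above every AstroEGFR* library and with differences of 1.34 to 2.18. No gene, however, passed the test: at an adjusted p below 0.05 (limma, Benjamini-Hochberg) 0 of the 36 genes tested were called, against 152 of 12261 features (1.24%), and Abcg1 lay under the expression filter. With the astrocyte batch as a replicate block 0 of 36 were again called, against 3.87% of features. At an unadjusted p below 0.05, 8 of 36 were higher in PT (Srebf2, Insig1, Dhcr7, Elovl6, Scd1, Fads1, Lpin1 and Dgat2) and 0 were lower, against 5.88% and 7.69% of all features. The groups did not overlap for 5 of 36 genes with PT higher, against 6.95% of features, and for 0 of 36 with PT lower, against 7.81%. In any size, 30 of 36 were higher in PT, against 52.1% of features, and the median log2 difference was 0.45 against 0.03 over all features tested. Without both libraries of batch 3 (a setting added after seeing the data) the median was 0.93, and 15 genes had an unadjusted p below 0.05, against 10.8% of features, with 0 called after adjustment. Without AstroEGFR* replicate 3 alone the median was 0.73 with 10 such genes (10.8% of features). Without PT3 alone it was 0.68 with 12 (13.4%), and without AstroEGFR* replicate 1 it was 0.36 with 5 (9.43%).

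**Figure D1:**
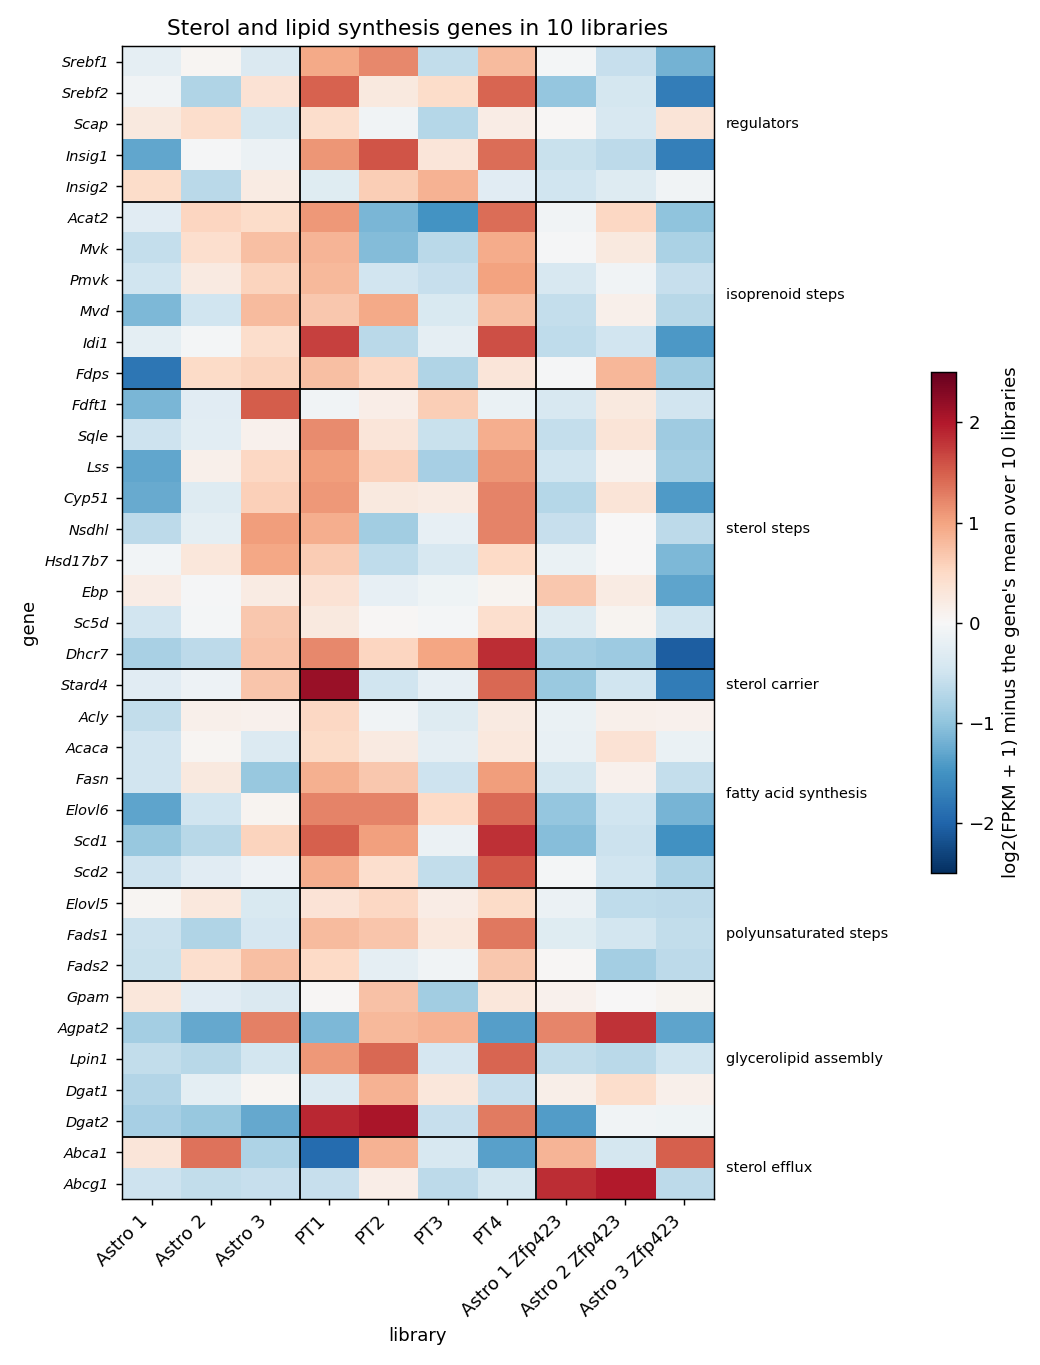
Each cell is the log2(FPKM + 1) of one gene (rows, grouped by role) in one library (columns) minus that gene's mean over the 10 libraries, red above and blue below the mean. Columns PT1 and PT4 are red for most rows, PT3 is pale or blue for the isoprenoid steps, and the Zfp423 library of batch 3 is blue for nearly all isoprenoid and sterol steps.

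Of the 5 regulators, 4 were higher in PT (median 0.75). Srebf2, the factor for cholesterol genes, measured 49.5, 31.0 and 68.4 FPKM in AstroEGFR* replicates 1 to 3 and 147.9, 62.6, 73.1 and 147 in PT1 to PT4. PT1 and PT4 lay far above the astrocytes, PT3 just above them and PT2 within their range. The difference was 1.06 ± 0.42 (SE, adjusted p = 0.33 in limma, exact permutation p = 0.114, two-sided). Srebf1, which encodes the fatty acid factor, measured 43.8, 53.2 and 39.5 FPKM in AstroEGFR* against 99.2, 118, 33.1 and 89.0 in PT. Here PT3 was the lowest of the 7 libraries and the remaining PT libraries were the highest, for a difference of 0.75 ± 0.44 (SE, limma adjusted p = 0.516) that was 1.15 without PT3. Insig1, the retention protein that is itself an SREBP target, measured 36.2, 89.6 and 81.7 FPKM in AstroEGFR* and 196, 274, 113 and 239.7 in PT. All PT libraries were above all astrocytes and the difference was 1.59 ± 0.43 (SE, limma adjusted p = 0.152, with the batch block 0.0852, exact permutation p = 0.0571). Averaging PT1 and PT4 gave a limma adjusted p of 0.288 for Insig1. Its relative Insig2, which is not driven by SREBP in most cells, measured 29.0, 12.6 and 24.2 FPKM in AstroEGFR* and 16.7, 32.5, 38.8 and 16.9 in PT, and the groups overlapped (0.23 ± 0.41, SE). Scap, the escort, measured 44.6, 51.1 and 27.4 FPKM in AstroEGFR* and 51.2, 35.3, 22.5 and 43.1 in PT, with a difference of -0.12 ± 0.35 (SE). PT3 and AstroEGFR* replicate 3, of the same batch, were the lowest of these libraries for Scap.

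**Figure D2:**
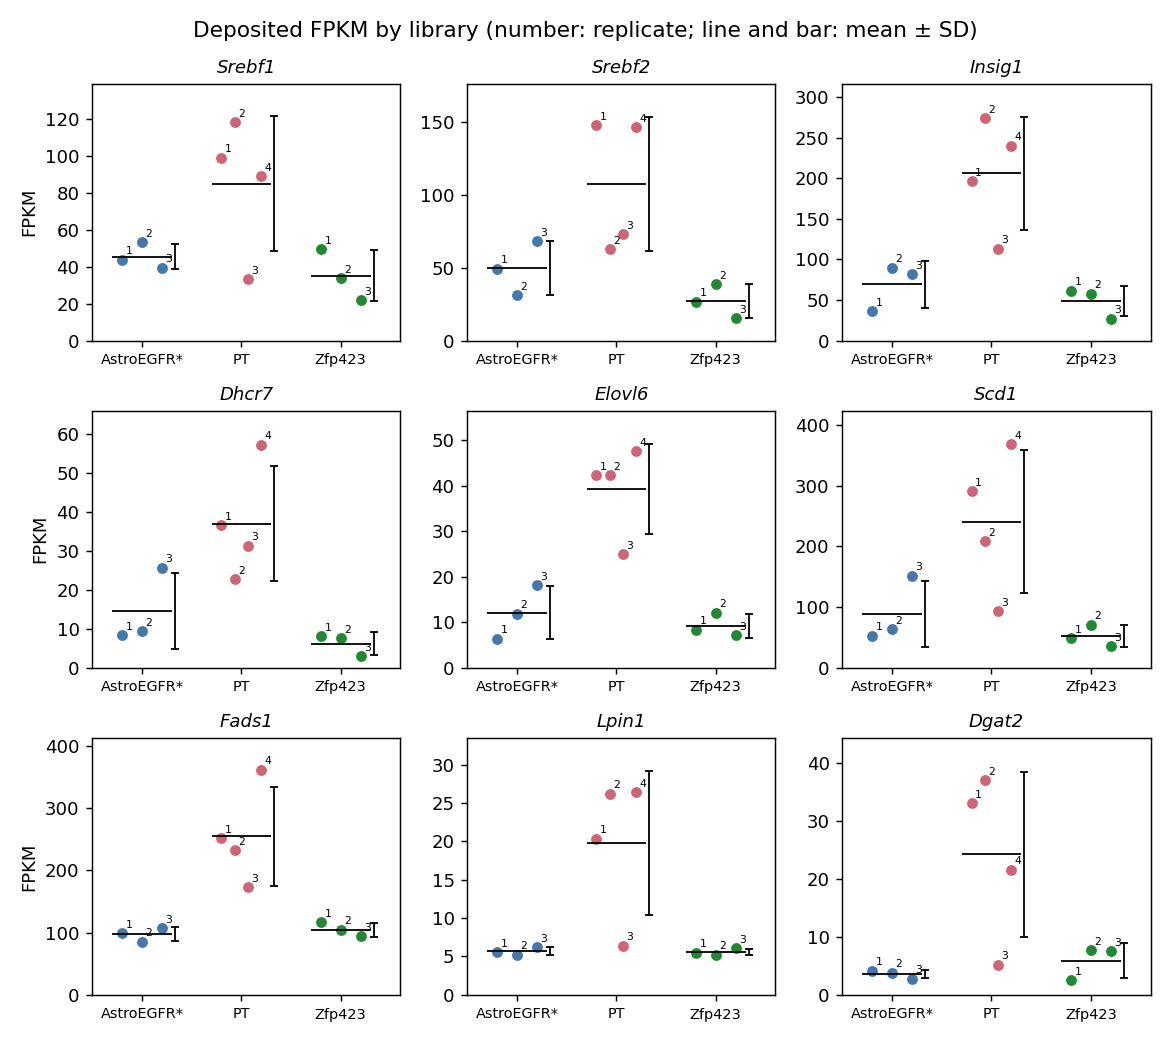
FPKM of 9 genes (y axes, linear from 0) in the libraries of the 3 groups, numbered by replicate, with a line at the group mean and a bar of ± SD. For Insig1, Elovl6, Fads1, Lpin1 and Dgat2 every PT point lies above every AstroEGFR* point, while PT3 sits at or near the bottom of PT in most panels.

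The 6 enzymes of the isoprenoid steps, which carry acetyl-CoA to farnesyl diphosphate, varied widely among libraries of the same group. Their differences between PT and AstroEGFR* ran from -0.27 to 0.78 with a median of 0.28 and 4 of 6 higher. Mvd, the decarboxylase that makes isopentenyl diphosphate, measured 8.29, 13.4 and 34.2 FPKM in AstroEGFR* and 31.5, 38.4, 14.6 and 33.4 in PT (0.78 ± 0.51, SE, limma adjusted p = 0.573). AstroEGFR* replicate 3 exceeded 3 of the 4 PT libraries, and the difference was 1.32 without it and 0.36 without AstroEGFR* replicate 1. Idi1, the isopentenyl diphosphate isomerase, measured 4.48, 5.26 and 7.87 FPKM in AstroEGFR* against 20.3, 3.05, 4.58 and 18.8 in PT (0.55 ± 0.64, SE, limma adjusted p = 0.775). PT1 and PT4 were the highest and PT2 the lowest of these 7 libraries. The difference was 0.18 without PT1, 0.22 without PT4, 0.20 with these averaged and 0.98 without PT2. The other isoprenoid enzymes were the thiolase Acat2, the kinases Mvk and Pmvk and the farnesyl diphosphate synthase Fdps, with differences between -0.27 and 0.47. In Acat2 the split among PT libraries was the widest, with 49.0 and 61.0 FPKM in PT1 and PT4 and 9.74 and 7.39 in PT2 and PT3 around the astrocyte range of 18.4 to 33.2. Fdps spanned 5.08 to 30.3 FPKM within AstroEGFR* alone.

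Of the 9 enzymes of the sterol steps 7 were higher in PT, with a median of 0.22 and a range of -0.37 to 1.39. Dhcr7, which carries out the last reduction to cholesterol in one branch of the pathway, measured 8.32, 9.37 and 25.7 FPKM in AstroEGFR* and 36.6, 22.7, 31.3 and 57.2 in PT. Only the astrocytes of batch 3 overlapped with PT, and the difference was 1.39 ± 0.45 (SE, limma adjusted p = 0.232, exact permutation p = 0.0857). Cyp51, the lanosterol demethylase, measured 25.0, 48.8 and 92.8 FPKM in AstroEGFR* and 131, 72.3, 70.8 and 145 in PT (1.02 ± 0.48, SE, limma adjusted p = 0.418). Again PT1 and PT4 were above all astrocytes and AstroEGFR* replicate 3 above the remaining PT libraries. Without AstroEGFR* replicate 1 the difference was 0.55. The other sterol enzymes differed by -0.37 to 0.69. Sqle, the squalene epoxidase and a rate-limiting step, ranged from 66.4 to 103 FPKM in AstroEGFR* and from 64.7 to 217 in PT. Lss, the cyclase that forms lanosterol, ranged from 6.30 to 24.7 and from 9.004 to 37.6 FPKM. Fdft1, the squalene synthase, was highest of all 10 libraries in AstroEGFR* replicate 3, at 102 FPKM, and ranged from 31.1 to 53.5 in PT. Nsdhl and Hsd17b7, which act in demethylation of the ring, the isomerase Ebp and the desaturase Sc5d had overlapping ranges in the groups. The sterol carrier Stard4 measured 7.70, 8.75 and 16.1 FPKM in AstroEGFR* and 46.5, 6.49, 8.18 and 27.5 in PT (0.63 ± 0.67, SE, limma adjusted p = 0.758), PT1 and PT4 again being above all astrocytes. Its difference rested on single libraries, at 0.14 without PT1, 0.39 without PT4, 0.28 with these averaged and 1.03 without PT2.

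Genes of fatty acid synthesis and monounsaturation were higher in PT in 6 of 6 cases, with a median of 0.89 and a range of 0.21 to 1.69. Elovl6, which elongates palmitate to stearate, measured 6.35, 11.9 and 18.1 FPKM in AstroEGFR* against 42.3, 42.4, 25.0 and 47.6 in PT. No PT library overlapped with the astrocytes (1.69 ± 0.38, SE, limma adjusted p = 0.0935, with the batch block 0.0828), and the exact permutation p of 0.0286 was the smallest that 3 against 4 libraries can give. That test counts PT1 and PT4 as separate. With the pair averaged, the limma adjusted p was 0.214 for Elovl6. Scd1, the stearoyl-CoA desaturase, measured 52.5, 63.1 and 152 FPKM in AstroEGFR* and 291, 209, 92.9 and 368 in PT (1.41 ± 0.56, SE, limma adjusted p = 0.327). PT3 was the only PT library below AstroEGFR* replicate 3, and without both the difference was 2.27. Its paralog Scd2, the major desaturase of mouse brain, had the highest level of the 37 genes, with 343 to 454 FPKM in AstroEGFR* and 322 to 1424 in PT. Scd1 and Scd2 are closely similar in sequence and reads may have been split between them. Acly, which supplies cytosolic acetyl-CoA, Acaca, which makes malonyl-CoA, and the synthase Fasn differed by 0.21, 0.44 and 0.91. Fasn ranged from 25.4 to 59.3 FPKM in AstroEGFR* and from 34.4 to 104 in PT, with PT3 again the lowest PT library.

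The polyunsaturated steps comprised Elovl5, Fads1 and Fads2, with differences of 0.40, 1.34 and 0.01. Fads1, the delta-5 desaturase, measured 98.6, 85.2 and 107 FPKM in AstroEGFR* and 251, 232, 172 and 361 in PT, so that the lowest PT library was above the highest astrocytes. The difference was 1.34 ± 0.31 (SE, limma adjusted p = 0.0997, with the batch block 0.0612, exact permutation p = 0.0286). Averaging PT1 and PT4, which the permutation counts as separate, gave a limma adjusted p of 0.211 for Fads1. Elovl5, the elongase of polyunsaturated fatty acids, measured 91.0, 106 and 67.6 FPKM in AstroEGFR* and 112, 127, 101 and 123 in PT (0.40 ± 0.25, SE, limma adjusted p = 0.544). Only PT3 lay below an astrocyte library, and without AstroEGFR* replicate 3 the difference was 0.22. Fads2, the delta-6 desaturase, ranged from 92.7 to 230.2 FPKM in AstroEGFR* and from 117 to 217 in PT.

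The 5 glycerolipid genes were higher in PT in 5 of 5 cases with a median of 0.36. Dgat2, which performs the last acylation to triglyceride, measured 4.19, 3.79 and 2.82 FPKM in AstroEGFR* and 33.1, 37.1, 5.22 and 21.6 in PT. Lpin1, the phosphatidate phosphatase that makes diacylglycerol, measured 5.57, 5.21 and 6.23 FPKM in AstroEGFR* and 20.3, 26.2, 6.43 and 26.4 in PT. In both genes PT3 lay just above the astrocytes and the remaining PT libraries far above. The difference was 2.18 ± 0.61 (SE) for Dgat2, the largest of the 36 genes tested, with a limma adjusted p of 0.163 and 0.069 with the batch block. It was 1.48 ± 0.47 (SE) for Lpin1, with a limma adjusted p of 0.22 and 0.12 with the batch block, and the exact permutation p was 0.0571 for both genes. Without PT3 both passed, with 2.76 for Dgat2 (limma adjusted p = 0.0211) and 1.92 for Lpin1 (limma adjusted p = 0.0272), and these were the 2 genes called in that setting, against 0.846% of features. That setting counts PT1 and PT4, read as sharing their source, as separate. When these were averaged and PT3 kept, the limma adjusted p was 0.30 for Dgat2 and 0.37 for Lpin1. The acyltransferases Gpam, Agpat2 and Dgat1, which act at the first, second and last acylation, differed by 0.16, 0.08 and 0.36. Agpat2 measured 2.75 FPKM in AstroEGFR*, 2.09 in PT1 and 1.62 in PT4 of batch 1, against 15.3 in AstroEGFR* and 11.3 in PT3 of batch 3. The vector libraries had the opposite order, with 14.8 FPKM in batch 1 and 1.71 in batch 3.

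Of the efflux transporters, which LXR induces when sterols are plentiful, Abca1 alone could be tested. Abca1 measured 37.2, 78.7 and 17.1 FPKM in AstroEGFR* and 7.17, 55.7, 22.6 and 11.2 in PT (-0.996 ± 0.74, SE, limma adjusted p = 0.629), with PT1 and PT4 below all astrocytes. The difference was -0.46 without AstroEGFR* replicate 2, -0.59 without PT1, -1.52 without PT2 and -1.53 without AstroEGFR* replicate 3. Abcg1 was near 0 in both groups, with 0.105, 0.0227 and 0.054 FPKM in AstroEGFR* and 0.0572, 0.774, 0 and 0.162 in PT.

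**Figure D3:**
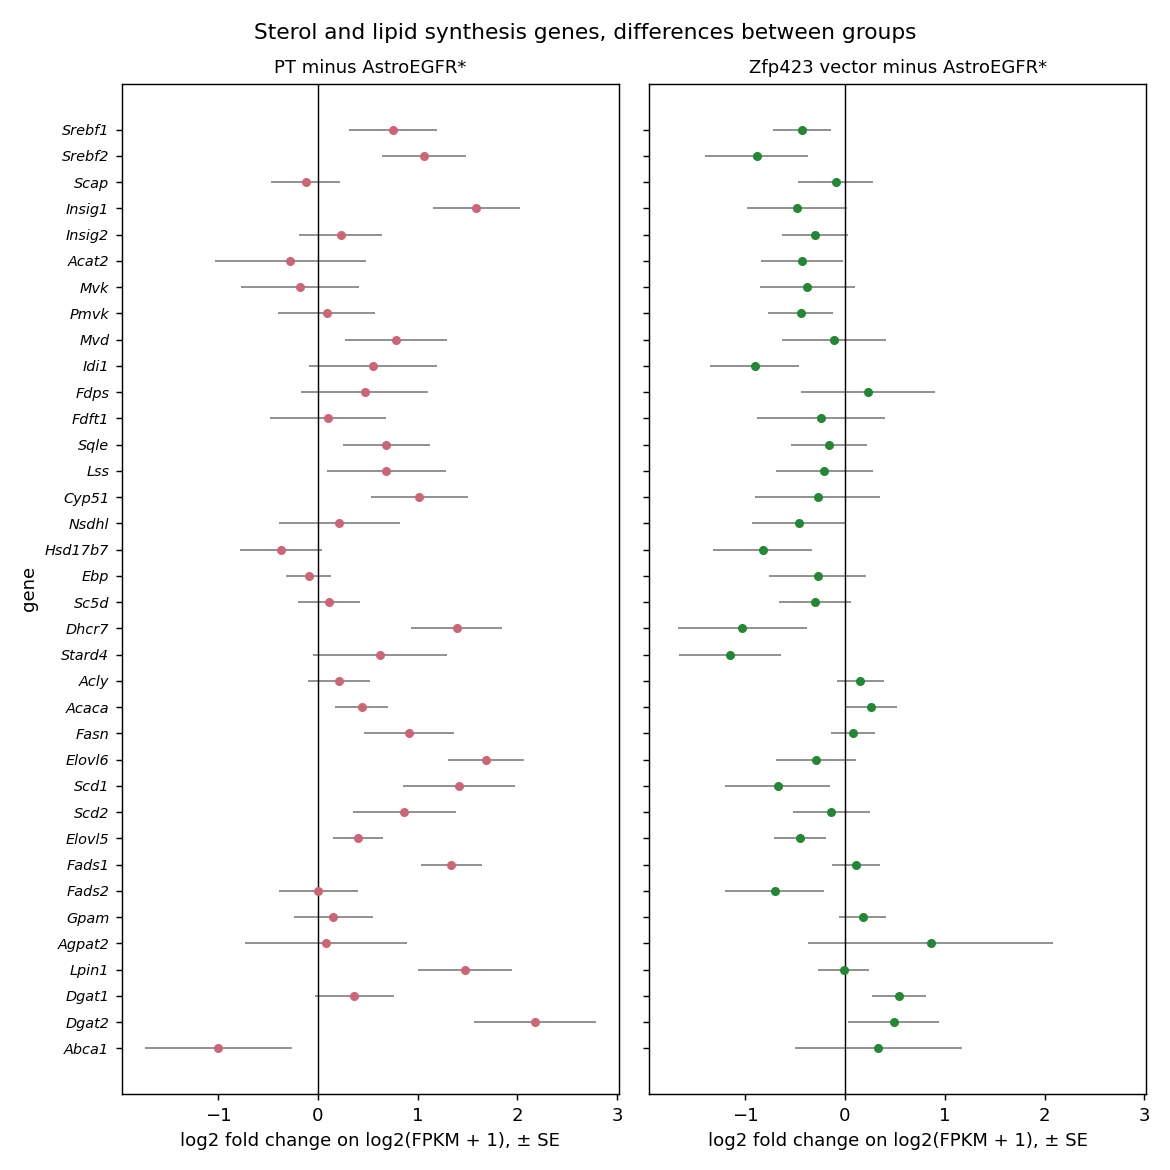
Log2 fold change on log2(FPKM + 1) ± SE for each gene (rows) in PT minus AstroEGFR* (left) and in Zfp423 vector minus AstroEGFR* (right), on one scale and without Abcg1. On the left most points lie right of 0, with Dgat2 at 2.18 and Abca1 at -0.996 as the extremes, and on the right the isoprenoid and sterol enzymes lie left of 0 except Fdps at 0.23.

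Because each PT was assigned to an astrocyte batch, the genes were next compared within batches, with 1 library against 1 and hence without a test. The batches differed in direction. In batch 1, 25 of 37 genes were at least 1 higher on the log2 scale in PT1 than in AstroEGFR* (7.65% of 12476 features) and 23 of 37 in PT4 (8.62%), with medians of 1.37 and 1.53, while 1 of 37 was at least 1 lower in each (10% and 10.2%). In batch 2, 13 of 37 were at least 1 higher in PT2 (12.7% of features) and 2 at least 1 lower (15.9%), with a median of 0.46. In batch 3, 0 of 37 were at least 1 higher in PT3 (8.44%) and 8 were at least 1 lower (13%), with a median of -0.40. Over all features the medians of the 4 pairs lay between -0.01 and 0.04. PT1 and PT4 were compared with the same astrocyte library, AstroEGFR* replicate 1, which had the lowest value of the 3 AstroEGFR* libraries for 14 of the 15 isoprenoid and sterol enzymes, whereas AstroEGFR* replicate 3 had the highest for 14 of 15. In PT, PT1 and PT4 of batch 1 ranked first and second of all 10 libraries for 8 of these 15 enzymes, and the lowest PT library was PT3 for 8 and PT2 for 6 of the 15.

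The split was wide in the isoprenoid steps. All 6 enzymes were at least 1 higher in PT1 (median 1.63) and in PT4 (median 1.76) than in their astrocytes. In PT2 only Mvd and Fdps were higher (median of the 6 enzymes -0.67), and in PT3 none was higher and 5 of 6 were at least 1 lower (median -1.24). The sterol steps followed with medians of 1.56 in PT1, 1.42 in PT4, 0.45 in PT2 and -0.72 in PT3. The glycerolipid genes had another order, with 5 of 5 at least 1 higher in PT2 (median 2.09), against medians of 0.38 in PT1, 0.14 in PT4 and 0.04 in PT3. In all 4 pairs 11 of 37 genes were higher in PT than in the astrocytes of the same batch, against 21.1% of features. Beside the 5 genes without overlap, for which this was given, these were Srebf2, Dhcr7, Acaca, Fasn, Elovl5 and Dgat1.

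**Figure D4:**
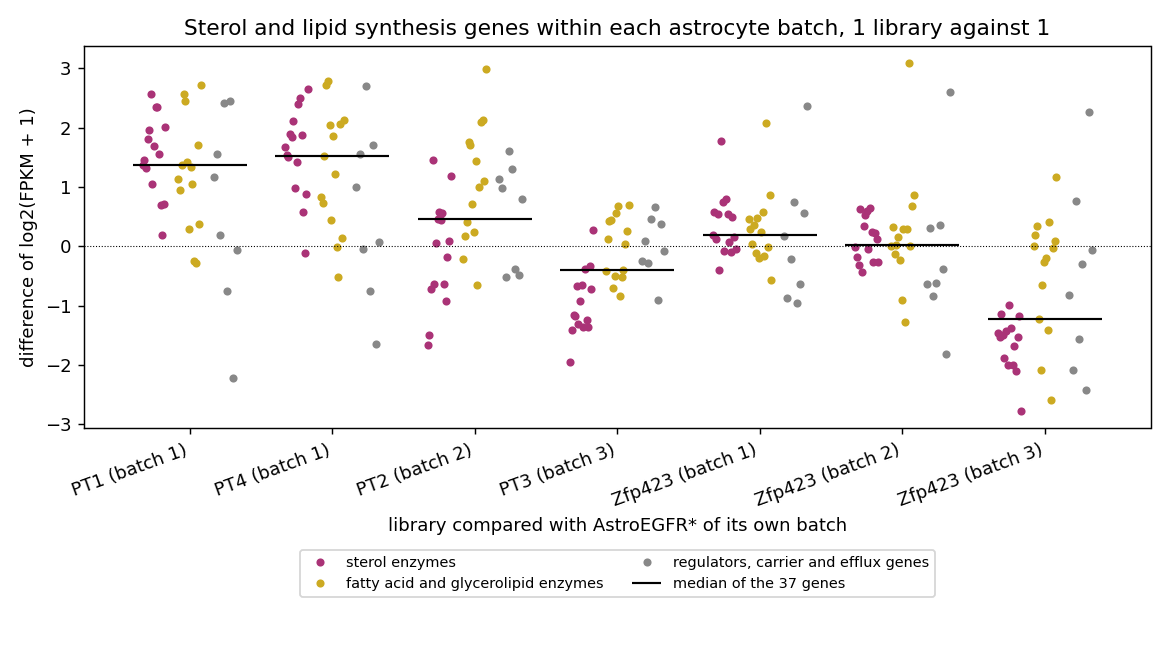
Difference of log2(FPKM + 1) between each PT or Zfp423 library and the AstroEGFR* library of its own batch (x axis), one point per gene, coloured by class, with a line at the median of the 37 genes. The medians are 1.37 and 1.53 in PT1 and PT4, 0.46 in PT2, -0.40 in PT3 and, for the Zfp423 libraries of batches 1 to 3, 0.20, 0.02 and -1.23.

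PT1 and PT4 also had high oligodendrocyte lineage markers. Olig1 measured 1000.3 and 1089 FPKM in PT1 and PT4 against 45.4 to 176 in AstroEGFR* and 69.3 and 89.8 in PT2 and PT3. Of the 10 listed lineage markers 9 were higher in PT on average, with summed FPKM of 66.8 to 223 in AstroEGFR* and 131 to 1704 in PT, while the myelin gene Mog was at most 0.044 FPKM in PT. AstroEGFR* replicate 3, highest of all 10 libraries for 3 of the 15 isoprenoid and sterol enzymes, had the lowest lineage sum of AstroEGFR* and PT, 66.8. Fibroblast markers went the other way, with 0 of 6 higher in PT, sums of 312 to 5138 in AstroEGFR* and 1.08 to 372 in PT, and the maximum in AstroEGFR* replicate 3. The neuronal sum was 28.4 to 57.3 in AstroEGFR* and 16.4 to 100.4 in PT, nearly all of it Tubb3 in PT (67.7 and 99.4 FPKM in PT1 and PT4), while Rbfox3 was at most 0.021 FPKM in these 7 libraries. The part of these cell types in the values of the lipid genes was not tested. The microglial sum was at most 2.52 in PT.

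The second comparison asked how the same genes differed between AstroEGFR* with and without forced Zfp423 expression. Zfp423 itself measured 4.30, 3.25 and 3.48 FPKM in AstroEGFR* replicates 1 to 3, 15.7, 9.73 and 105 in the vector cultures of the same batches and 0.837, 2.78, 0.641 and 1.77 in PT1 to PT4. The lowest differences were those of the sterol carrier Stard4 and the reductase Dhcr7, and the direction of most sterol genes differed between batch 3 and the other batches. At an adjusted p below 0.05 (limma with the batch as a block) 0 of 37 genes were called, against 0 of 12366 features (0%), and without the block 0 of 37 against 2 features (0.0162%). At an unadjusted p below 0.05 the count was 0 of 37, against 7.38% of features, of which 3.3% were higher and 4.08% lower. In any size 11 of 37 were higher, against 51.7% of features, with Abcg1 among the 11 because the vector libraries lifted it over the expression filter, and the median was -0.27 against 0.02 over all features. Without the libraries of batch 3 the median was 0.12. The AstroEGFR* libraries serve both comparisons, so low or high values in them enter both.

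By role, 0 of 5 regulators (median -0.43), 1 of 6 isoprenoid enzymes (-0.40) and 0 of 9 sterol enzymes (-0.27) were higher with the vector, against 3 of 6 fatty acid genes (-0.03), 1 of 3 polyunsaturated genes (-0.45) and 4 of 5 glycerolipid genes (0.49). The sterol and isoprenoid counts rested on batch 3. Within batches, 6 of 9 sterol enzymes were higher with the vector in batch 1 (median 0.16), 6 of 9 in batch 2 (0.23) and 0 of 9 in batch 3 (-1.68), and 5, 2 and 0 of the 6 isoprenoid enzymes were higher (medians 0.37, -0.10 and -1.48). The groups did not overlap, with the vector lower, for 3 of 37 genes, against 5.87% of features. These were Idi1, Dhcr7 and Stard4. Idi1 measured 3.16, 3.65 and 1.39 FPKM with the vector against 4.48 to 7.87 without (-0.91 ± 0.44, SE, limma adjusted p = 0.651). Dhcr7 measured 8.04, 7.63 and 2.90 FPKM against 8.32 to 25.7 (-1.03 ± 0.65, SE, limma adjusted p = 0.687). Stard4 measured 4.57, 6.49 and 2.17 FPKM against 7.70 to 16.1 (-1.15 ± 0.51, SE, limma adjusted p = 0.634). In each of the 3 genes the vector library of batch 3 was the lowest, and for Dhcr7 the vector libraries of batches 1 and 2 lay just below their astrocytes. An exact permutation test of 3 against 3 libraries cannot give less than 0.1, which is what each gave. Without batch 3 the differences were -0.41 for Idi1, -0.15 for Dhcr7 and -0.51 for Stard4. Dgat1, the other triglyceride acyltransferase, was the 1 gene of 37 whose groups did not overlap with the vector higher (5.68% of features), at 13.6, 17.0 and 13.5 FPKM against 7.04 to 12.7 (0.54 ± 0.27, SE, limma adjusted p = 0.653), and was singled out after its values were seen.

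Among the regulators, Srebf2 measured 26.6, 38.7 and 15.3 FPKM with the vector (-0.88 ± 0.52, SE, limma adjusted p = 0.674), Srebf1 49.6, 33.8 and 21.9 (-0.43 ± 0.29, SE) and Insig1 61.3, 57.7 and 27.0 (-0.48 ± 0.50, SE). All 3 were lowest in the vector library of batch 3. Without batch 3 the differences were -0.28 for Srebf2, -0.23 for Srebf1 and 0.06 for Insig1, and without batch 2 that of Srebf2 was -1.48. Without batch 1 they were -0.73 for Srebf1 and -1.09 for Insig1. Scap measured 38.4, 28.1 and 47.4 FPKM and Insig2 14.4, 16.5 and 19.5, for differences of -0.09 and -0.30. The enzyme values with the vector were 12.5, 21.3 and 11.5 FPKM for Mvd, 36.97, 76.6 and 22.3 for Cyp51, 8.37, 12.04 and 7.14 for Elovl6, and 48.6, 70.8 and 35.1 for Scd1. In these 4 genes the vector library of batch 2 was the highest and that of batch 3 the lowest, and each difference changed sign without batch 3, to 0.58, 0.59, 0.18 and 0.03. Elovl5 measured 79.5, 56.6 and 56.0 FPKM (-0.45 ± 0.26, SE, and -0.23 without batch 2) and Fads1 116, 104 and 93.8 (0.11 ± 0.24, SE, and 0.02 to 0.26 with 1 library left out). Lpin1 stayed between 5.25 and 6.07 FPKM and Dgat2 measured 2.5, 7.73 and 7.55. The 5 genes whose PT and AstroEGFR* values did not overlap, Insig1, Elovl6, Fads1, Lpin1 and Dgat2, all had vector values below the lowest PT value except Dgat2, where the vector libraries of batches 2 and 3 exceeded PT3.

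Within batches the vector cultures also parted. In batch 1, 3 of 37 genes were at least 1 higher (10.6% of features) and 0 at least 1 lower (7.73%). In batch 2 the counts were 2 (11.6%) and 2 (12%). In batch 3, 2 were at least 1 higher (9.83%) and 21 at least 1 lower (16%), with a median of -1.23 against 0 over all features. These 21 included all 6 isoprenoid enzymes (median -1.48) and 8 of 9 sterol enzymes (median -1.68). The batch 3 vector library ranked last or second to last of all 10 libraries for 13 of the 15 isoprenoid and sterol enzymes. Its share of small RNA features was the highest, at 54.5%, against 34.7% and 34.9% in the vector libraries of batches 1 and 2. All of these shares exceeded those of the AstroEGFR* libraries. The batch 3 vector library also carried the most Zfp423 of the 3 vector cultures and was compared with the astrocytes highest for these enzymes. Fibroblast markers were also lower with the vector between these libraries, with a sum of 5138 in AstroEGFR* replicate 3 and 228 with the vector (Col1a1 1816 and 3.83 FPKM). The part of each was not tested.

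Abcg1 was detected above 1 FPKM only in vector libraries. It measured 4.66, 5.23 and 0.0035 FPKM in the vector cultures of batches 1 to 3, against 0.0227 to 0.105 in AstroEGFR*. It passed the expression filter only through the vector cultures of batches 1 and 2 and had to differ, so its test is not given. Abca1 measured 55.2, 21.7 and 85.9 FPKM there, and its difference of 0.34 became -0.63 without batch 3. The vector cultures of batches 1 and 2 were also those with microglial transcripts. Csf1r measured 202, 108 and 0.069 FPKM and Cx3cr1 104.8, 13.7 and 0.005 in the 3 vector cultures, against at most 0.691 and 0.4 in AstroEGFR*, and the sum over the 6 microglial markers ranged from 0.152 to 435 with the vector against 5.74 to 38.6 without. The part of such cells in the Abcg1 value was not tested. The vector library of batch 2 further listed Olig1 and Olig2 at 0, held the lowest astrocyte marker sum and had the highest fibroblast marker sum (6273).

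Finally, 52 further genes of sterol and lipid handling were read for context, of which 50 were in the matrix. In PT against AstroEGFR* 41 were tested, 31 were higher (median 0.35) and 0 passed at an adjusted p below 0.05 (limma), against 52.1% and 1.24% of features. At an unadjusted p below 0.05, 6 were higher (5.88% of features) and 2 lower (7.69%). With the batch block 2 of 41 passed, against 3.87% of features, namely the lipoprotein receptor Vldlr (adjusted p = 0.0331) and the arachidonate-activating Acsl4 (adjusted p = 0.0171), both higher in PT in the main test with differences of 2.42 and 1.51. The methyl oxidase Sc4mol, which acts on the sterol ring, differed by 0.67 in PT. Of the LXR receptors, Nr1h2 differed by 0.63 and Nr1h3 by -0.57, with limma adjusted p of 0.37 and 0.608. Apoe, the glial lipid carrier, spanned 129 to 491 FPKM in AstroEGFR*, 114 to 507 in PT and 3.39 to 1130 with the vector. With the vector 42 of these genes were tested, 23 were higher (51.7% of features) and 0 passed after adjustment in limma (0%), with 5 at an unadjusted p below 0.05 (7.38%). Of these, 4 were higher (3.3% of features) and 1 lower (4.08%). Vldlr and Acsl4 were among the 4, with differences of 2.31 and 1.17, and so were higher than AstroEGFR* in both comparisons.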

How the data were processed

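RNA-seq was performed on 10 libraries of cultured mouse cells. As stated by the authors and in the submitters' processing notes, reads were aligned with TopHat 1.3 to mm9 and summarised with Cuffnorm. The labels name a TruSeq RNA kit and the study a ribosomal depletion kit with a stranded protocol. The deposited matrix holds FPKM for 23230 features, one column per library, with 0 columns of other samples and no columns of comparisons by the authors. FPKM hold no counts, so depth is unknown.

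Values were taken as log2(FPKM + 1). Features averaging 1 FPKM or more in the groups compared were fitted with limma 3.58.1 in R 4.3.3 (empirical Bayes with trend, two-sided), and p-values were adjusted over all features tested by Benjamini-Hochberg at a threshold of 0.05. PT against AstroEGFR* was fitted without a block, and AstroEGFR* Zfp423 against AstroEGFR* with the astrocyte batch as a block. Single genes were also compared by exact permutation of the mean log2 difference over the 35 splits of 3 against 4 libraries. Batches of PT were read from a figure of the study, those of the other libraries from the labels. Pairing was checked by the correlation of deviations from group means. In PT the same-batch pairs gave 0.347 to 0.5 and the different-batch pairs -0.341 to -0.0919. In the Zfp423 cultures the same-batch pairs gave 0.239, -0.11 and -0.261 and the different-batch pairs -0.23 to 0.305. Same-batch libraries thus deviated together in PT, which the main PT fit without a block leaves out, and counts with the block are given beside it. In the Zfp423 cultures, where the block was used, they did not do so in every batch. Nothing in the labels says how many animals each batch came from, and p-values measure the spread between these libraries.

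The 37 genes, the further pathway genes and the marker lists were chosen by known function, with earlier results of these data known. All 37 are counted by role. Given for each library are the 5 regulators, genes called in any fit, genes whose groups did not overlap in PT against AstroEGFR*, and the 2 of each role with the largest absolute difference there, 18 in all. Scaling, filter, pseudocount, trend, blocks, averaged PT1 and PT4 and left-out libraries were varied.

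Promoter windows and their sequences are from RefSeq (GRCm38.p6), matched by symbol and searched over 250 bases before each start. The matrix is on mm9, and the only coordinates given are those of the promoter windows on GRCm38.p6. Some further pathway genes are not reported here.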

Additional observations from a re-analysis of the deposited data

How the results depend on the processing

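Of the sterol and lipid genes, 0 passed at an adjusted p below 0.05 (limma) under any setting but one: without PT replicate 3 the count was 2, Lpin1 and Dgat2, for a range of 0 to 2 over the left-out libraries. Features called in PT against AstroEGFR* numbered 152, and 475 with the astrocyte batch as a replicate block, 82 with all 10 libraries in one fit, 59 with PT1 and PT4 averaged and 8 without batch 3, an alternative added after seeing the data. Leaving out 1 library gave 7 (AstroEGFR* replicate 1) to 123. In the Zfp423 comparison the count of 0 became 2 with no replicate block and 0 to 60 with 1 library left out, with 47 without AstroEGFR* replicate 2 and 60 without Zfp423 replicate 2. The median of the genes there was -0.27 and, with 1 library left out, lay between -0.58 and 0.12, the latter without either library of batch 3 or without both.

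Differences that changed sign were small or rested on 1 batch. With 1 library left out, PT differences ranged from -0.38 to 0.10 for Scap (0.055 without AstroEGFR* replicate 2, 0.10 without PT3) and from -0.11 (without AstroEGFR* replicate 2) to 0.46 for Insig2. In the Zfp423 comparison, leaving out either library of a batch gives the same value under the block, and the ranges were -0.63 to 0.032 for Insig2 (high end without batch 1) and -0.52 to 0.28 for Scap (without batch 2). The end without batch 3 comes last in the ranges -1.09 to 0.059 for Insig1, -0.48 to 0.58 for Mvd, -0.73 to 0.59 for Cyp51, -0.61 to 0.18 for Elovl6, -1.09 to 0.027 for Scd1 and 1.41 to -0.63 for Abca1. The cause of these shifts was not tested. The block changed no call among the genes, and over the genes given library by library 461 values kept direction and side of the threshold, 25 changed sign and 2 passed it. Unknown depth limits low genes such as Abcg1 most.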
